A study of Mus musculus with 81 samples.

Results

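The 5 genes of the ISG15 conjugation system were chosen by symbol: Isg15, the ubiquitin-like modifier, Uba7, its activating enzyme (E1), Ube2l6, its conjugating enzyme (E2), Herc6, the main ISG15 ligase (E3) of the mouse, and Usp18, the protease that takes ISG15 off its targets. They are 5 of the 54079 genes listed in every library of the bone marrow-derived macrophage (BMDM) sets, and each had reads in all 81 libraries of the series. ISG15 resembles 2 ubiquitin units joined end to end. Interferons induce it and its enzymes, which pass it along an E1-E2-E3 chain to lysines of many newly made proteins. USP18 removes it again and also binds the type I interferon receptor, where it dampens signalling. Usp18 is thus both a product and a brake of the interferon response.

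The study asked what loss of histone H3.3 does to developing myeloid cells of the mouse. WT mice were H3f3a fl/fl H3f3b fl/fl without Cre, and cKO mice carried the same floxed alleles plus LysM cre/cre, which expresses Cre from the Lyz2 locus in myeloid cells, so that controls held the floxed alleles but not Cre. The paper describes its mice as derived from a C57BL/6 background, male and female, aged 8 to 10 weeks. It lists the parent Sting KO and Mavs KO lines as mixed with another strain, the Mavs line backcrossed before use. The double KOs themselves are listed as B6/J. RNA-seq was made in 5 experiments: bone marrow cultured in L929-conditioned medium for 3, 5 or 7 days, BMDMs on day 8 with or without interferon-γ (IFN-γ) for 12 h, peritoneal macrophages, BMDMs grown without antibody, with an IgG1 κ control antibody or with an IFNAR1 blocking antibody (10 µg/mL from the start, collected on day 6), and BMDMs of 3 WT and 3 cKO sets with 3 double KO groups. In the double KOs the cKO alleles were combined with germline loss of Sting, Mavs or Irf7. The labels do not tie a set to a double KO, so each double KO was set against the mean of all 3 sets of a genotype.

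Of the 81 libraries, 79 fell into 27 groups of 2 or 3, and 2 cKO day 8 libraries whose labels contradict each other entered no comparison. Counts on genes ranged from 3614967 (cKO day 8 with IFN-γ, replicate 1) to 45581528, and the lowest member count in the 79 libraries was 19, with a median of 808. H3f3a lay between 1.21 and 15.3 CPM (counts scaled to library size) in cKO libraries and between 33.6 and 93.8 in WT libraries. H3f3b was lower in cKO without overlap in the antibody experiment (16.7 to 67.8 CPM against 295 to 468) and untreated on day 8 (173 to 187 against 205.5 to 244). The same held in set 2 (195 to 210 against 243 to 261) and set 3 (187 to 202 against 225 to 274). In the other comparisons of cKO with WT it overlapped. The Irf7 double KO lay at 71.9 to 147 CPM. The paper describes H3f3b deletion as variable, complete in some cKO samples and partial in others. Markers of peritoneal macrophages summed to between 7057 and 8693 CPM in the peritoneal libraries and to at most 32.3 CPM in all others, and macrophage markers were detected in every group. In the time course, replicate 1 stood apart on days 5 and 7, where it had the highest Isg15 level of its group in both genotypes. Beside the results of days 5 and 7, values without some of these libraries are also given. In bulk samples a change in the share of a cell type and a change in RNA per cell cannot be told apart.

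Promoter sequence is shown for the members whose window held the interferon-response type of repeat, because interferon induces these genes. RefSeq promoters (GRCm38.p6, 250 bases before to 50 bases after the start) were found for 4 of the 5 members. The searched motif was GAAANNGAAA on both strands, which occurs in 1131 of 32851 mouse promoters (3.44%). Isg15 (gene at chr4:156199424-156200818, minus strand, GRCm38, 2 exons) held 3 overlapping copies that start 78, 72 and 66 bases before the start site. Uba7 (chr9:107975505-107984060, plus strand, 24 exons) held only the shorter AAANNGAAA, on the opposite strand, from -27 to -19. This shorter motif, chosen after the promoters were seen, occurs in 3466 promoters (10.6%). Positions count from the RefSeq start. For Uba7 that start lies inside the gene interval given, which comes from another annotation, so the Uba7 stretch shown, from -60 to -1, also lies inside it. The stretches are chr4:156200859-156200918 on the minus strand and chr9:107975507-107975566 on the plus strand, with the motif letters in capitals:
Isg15: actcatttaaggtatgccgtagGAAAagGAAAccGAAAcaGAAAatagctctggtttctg
Uba7: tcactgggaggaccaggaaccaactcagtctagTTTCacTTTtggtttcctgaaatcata
Neither form was in the windows of Ube2l6 (chr2:84798828-84810335, plus strand) or Herc6 (chr6:57581000-57664632, plus strand). TTCNNNGAA, also chosen after the promoters were seen and present in 8.30% of all promoters, was in the window of none of the 4. Among the ubiquitin-pathway lists, GAAANNGAAA was in 0 of 5 E1, 0 of 21 E2, 0 of 4 HERC and 0 of 24 USP promoters on hand, and in 0 of 9 promoters of ubiquitin-like proteins. The shorter AAANNGAAA was in 1 of 5 E1, 1 of 21 E2, 1 of 4 HERC and 0 of 24 USP promoters and in 3 of 9 of ubiquitin-like proteins. Usp18 lies at chr6:121245906-121270917 on the plus strand.

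On day 3 of culture, all 5 genes were higher in cKO than in WT cells, and the modifier and the protease by far more than the enzymes. Isg15 was measured at 1.77, 1.23 and 1.12 CPM in the WT libraries and at 113, 66.4 and 93.8 CPM in the cKO libraries. Usp18 was at 3.0, 2.41 and 1.97 CPM in WT and at 141, 125 and 149 CPM in cKO. The lowest cKO library of either gene lay far above the highest WT library. The enzymes started from a higher WT level. Uba7 was at 25.8, 33.0 and 25.8 CPM in WT and at 143, 131 and 131 CPM in cKO. Ube2l6 was at 19.5, 18.1 and 16.3 CPM in WT and at 118, 97.6 and 95.2 CPM in cKO. Herc6 was at 4.16, 5.22 and 5.11 CPM in WT and at 37.5, 34.2 and 57.0 CPM in cKO. For each of the 5 genes the groups did not overlap. The share of all genes without overlap was not counted, here or below, so lack of overlap only describes the members.

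By edgeR's quasi-likelihood test over all genes, 5 of 5 members were called higher at an adjusted p under 0.05 on day 3, where 6.0% of the 15955 genes tested were called higher. The log2 fold change was 6.06 ± 1.14 (SE) for Isg15 (66.6-fold, 95% confidence interval 12.5 to 354, adjusted p = 0.00323) and 5.82 ± 0.81 for Usp18 (56.5-fold, 17.1 to 186, adjusted p = 0.000382). It was 3.15 ± 0.50 for Herc6, 2.53 ± 0.53 for Ube2l6 and 2.26 ± 0.39 for Uba7, that is 8.86-, 5.76- and 4.78-fold. The median over the members was 3.15 on the log2 scale, beside 0.04 over all genes. Leaving out any single library kept 5 of 5.

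**Figure D1:**
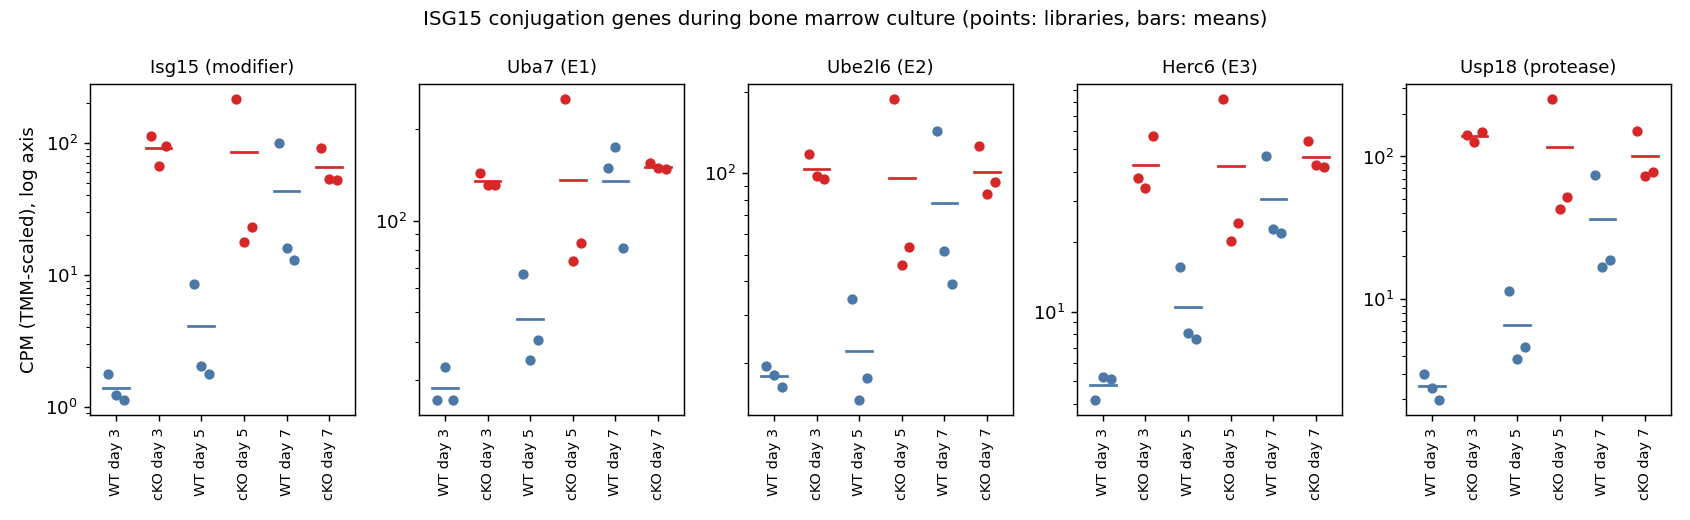
CPM (log axis) of each member in every time course library, WT in blue and cKO in red, with bars for group means. All cKO points lie above all WT points on days 3 and 5 for every gene, and WT day 7 replicate 1 reaches the cKO range for Isg15 (99.8 CPM).

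The estimated folds differed between members, and with them some proportions within a library, but neither difference was tested. Within a library, the ratio of Isg15 to Uba7 CPM was 0.0373 to 0.0686 in WT and 0.507 to 0.788 in cKO on day 3. The ratio of Usp18 to Isg15 CPM overlapped, at 1.69 to 1.95 in WT and 1.25 to 1.89 in cKO. Per kilobase of exonic length, mean WT levels on day 3 ran from Ube2l6 (9.0 CPM per kb) through Uba7 (4.22), Isg15 (1.82) and Usp18 (0.881) to Herc6 (0.520). In cKO cells Isg15 came first at 120 CPM per kb, followed by Ube2l6 (51.9), Usp18 (49.5), Uba7 (20.2) and Herc6 (4.62). With the length of the principal transcript, an alternative chosen after seeing the data, Usp18 (78) passed Ube2l6 (66.4) in cKO, and the order in WT was the same.

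Markers of B cells and plasmacytoid dendritic cells also stood higher in the day 3 cKO libraries. B cell markers (5 genes) summed to 31.6 to 41.2 CPM in WT and 61.7 to 100 in cKO, with 4 of 5 called higher. Plasmacytoid dendritic cell markers summed to 1.36 to 2.23 CPM in WT and 4.53 to 5.27 in cKO, with 1 of 3 tested called higher and Klk1 at 0. Neutrophil markers (8 genes, none at 0), at 1583 to 3038 CPM in WT and 2732 to 4205 in cKO, and stromal markers, at 8.52 to 45.7 and 26.7 to 70.4, overlapped between the genotypes, with 0 of 8 and 0 of 3 tested called. Their part in the result was not tested. Overlapping annotation touched 3 members. Uba7 and Herc6 share 3.48% and 13.7% of their exonic bases with a gene on the same strand, and Usp18 shares 4.44% with an antisense RNA. Its counts on both strands summed to 123% of its unstranded count, which leaves out reads that fall on both genes.

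On day 5 the difference was smaller on the log2 scale and varied more between libraries. Isg15 was at 8.48, 2.04 and 1.75 CPM in WT and at 216, 17.8 and 23.1 CPM in cKO. Usp18 was at 11.5, 3.81 and 4.59 CPM in WT and at 254, 43.0 and 52.4 CPM in cKO. Replicate 1 was the highest library of its group for both genes, and the groups did not overlap for any member. The test called 5 of 5 members higher, where 2.46% of genes were called higher, with log2 fold changes of 4.4 ± 1.0 for Isg15, 4.14 ± 0.73 for Usp18, 2.11 ± 0.52 for Ube2l6, 2.02 ± 0.47 for Herc6 and 1.52 ± 0.38 for Uba7. These calls depended on single libraries: the count fell to 0 without WT day 5 replicate 3 and to 1 without WT day 5 replicate 2 or without cKO day 5 replicate 1. Without cKO day 5 replicate 1 the log2 fold changes were 2.87 for Usp18, still called, and 2.35 for Isg15, 1.17 for Ube2l6, 1.09 for Herc6 and 0.75 for Uba7, none of them called. Without WT day 5 replicate 1 they were 5.48 for Isg15 and 4.78 for Usp18, both called. The count was also 0 when only the 2 groups compared were fitted, where the log2 fold change of Isg15 was 4.42. Stromal markers summed to 13.1 to 42.3 CPM in WT and to 67.6 to 95.3 in cKO on day 5, and to 4.38 to 40.4 and 86.4 to 125 on day 7, with Dcn and Lum at 0 in WT on day 5 and Lum at 0 in both on day 7. Neutrophil markers summed to 486 to 585 CPM in WT on day 5 and to 504, 587 and 1741 in cKO, and B cell markers to 57.8 to 193 CPM in WT and 14.3 to 56.4 in cKO on day 7. Their part in these results was not tested.

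By day 7 the WT and cKO libraries overlapped. Isg15 was at 99.8, 15.8 and 12.9 CPM in WT and at 90.9, 53.2 and 52.2 CPM in cKO. Usp18 was at 73.9, 16.9 and 19 CPM in WT and at 151, 73.0 and 77.4 CPM in cKO. For Uba7 the WT libraries, at 148, 174 and 81.4 CPM, spanned the 3 cKO libraries at 154, 149 and 147 CPM. The groups overlapped for every member: WT replicate 1 reached the cKO range for all 5, joined by WT replicate 2 for Uba7. For Usp18 and Herc6 no WT library exceeded the highest cKO library. Of 5 members 0 were called by edgeR, where 1.82% of genes were called in either direction, with 1 member (Usp18, 1.45 ± 0.64) at an unadjusted p under 0.05 and 0 called by DESeq2. Without WT day 7 replicate 1 the test called 1 member, Usp18. With replicate 1 of every group left out, a setting chosen after seeing the data, it called 4, with log2 fold changes of 2.04 for Usp18, 1.85 for Isg15, 0.94 for Ube2l6 and 0.90 for Herc6. With the replicate number as a block, 1 member was called (Usp18, log2 fold change 1.68, adjusted p = 0.0298).

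From day 3 to day 7, all 5 members rose in WT cells, where 12.6% of genes were called higher. The log2 fold changes were 4.97 ± 1.11 for Isg15, 3.91 ± 0.77 for Usp18, 2.66 ± 0.50 for Herc6, 2.25 ± 0.39 for Uba7 and 2.12 ± 0.53 for Ube2l6, and leaving out any single library kept all 5 calls. Without WT day 7 replicate 1 the log2 fold changes were 3.39 for Isg15, 2.87 for Usp18, 2.19 for Herc6, 2.17 for Uba7 and 1.33 for Ube2l6. Over the same days all 8 neutrophil markers fell in WT, with a median log2 fold change of -4.62, and 3 of 5 B cell markers fell, while the summed B cell level was 31.6 to 41.2 CPM on day 3 and 57.8 to 193 on day 7. Their part in the result was not tested. In cKO cells 0 of 5 members were called by edgeR between the same days, where 14.7% of genes were called in either direction, with 0 at an unadjusted p under 0.05 and 0 by DESeq2. The cKO fold changes lay between -0.48 (Isg15) and 0.15 (Uba7) on the log2 scale, with an interval for Isg15 of -2.25 to 1.29. Without replicate 1 of every group, Isg15 (-0.61) and Usp18 (-0.87) were called lower on day 7.

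The cKO effect itself was smaller on day 7 than on day 3 by 5.45 ± 1.39 on the log2 scale for Isg15, 4.37 ± 0.99 for Usp18, 2.55 ± 0.66 for Herc6, 2.15 ± 0.72 for Ube2l6 and 2.10 ± 0.54 for Uba7. edgeR called 0 of 5 at an adjusted p under 0.05, where it called 0.0439% of genes, although 5 of 5 had an unadjusted p under 0.05 and DESeq2 called 4. The adjusted p was between 0.0767 (Usp18) and 0.189 (Ube2l6). Fitting only the 4 groups called 4, the replicate block called 3, and leaving out WT day 7 replicate 3 called 2. Leaving out replicate 1 of every group called 5.

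Over the 12 comparisons of cKO with WT in all experiments, the 60 log2 fold changes of the members were all above 0. The exceptions among the alternatives were Herc6 with IFN-γ, Uba7 on day 7 and Ube2l6 in set 2, which fell to -0.39, -0.08 and -0.01 without cKO IFN-γ replicate 2, WT day 7 replicate 3 and cKO set 2 replicate 2, and Herc6 with IFN-γ also to -0.33 when the contradictory libraries were placed by their titles. Usp18 was called higher in 10 of 12 comparisons, Isg15 in 9, Uba7 and Herc6 in 7 each and Ube2l6 in 5. Within single comparisons the share of all genes called higher ran from 0.483% (IFNAR1 antibody) to 17.9% (set 1). How many of all genes were called, or lay above 0, as often over the 12 was not counted. The median log2 fold change over the 12 was 2.0 for Usp18, 1.73 for Isg15, 1.01 for Herc6, 0.82 for Uba7 and 0.72 for Ube2l6. The values of Isg15 and Usp18 exceeded those of the 3 enzymes in all 12 comparisons, although Isg15 and Herc6 were nearly equal on day 7 and in set 2. Whether members differ from each other in fold was not tested.

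**Figure D2:**
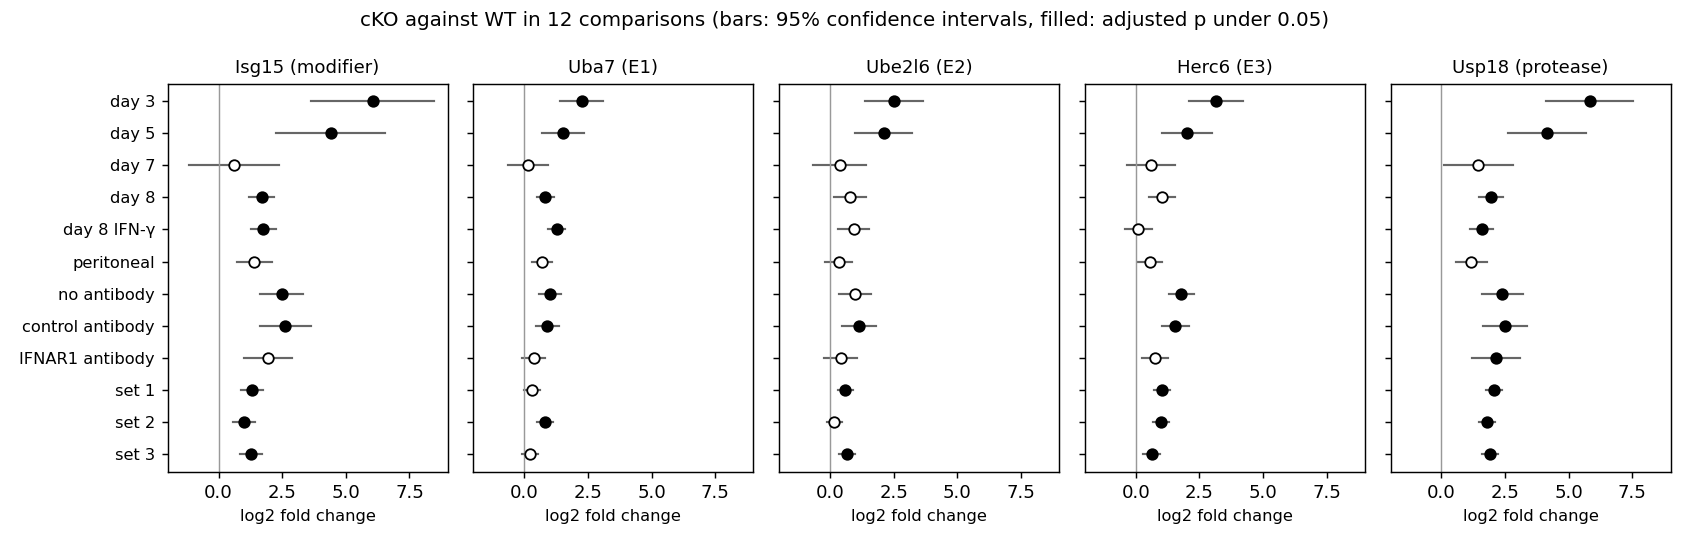
Log2 fold change of cKO against WT for each member in the 12 comparisons, with 95% confidence intervals, filled where the adjusted p was under 0.05. All points lie above 0, and the widest intervals are those of Isg15 in the time course.

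On day 8, 3 of the 5 members were higher in untreated cKO than in WT BMDMs. Isg15 was at 14.6, 15.6 and 10.2 CPM in WT and at 42.6 and 44.8 CPM in cKO. Usp18 was at 20.6, 18.1 and 21.2 CPM in WT and at 73.8 and 81.0 CPM in cKO. The groups did not overlap for any of the 5 members, but they are small and the share of all genes without overlap was not counted. The test called 3 of 5 higher, where 0.558% of genes were called higher: Usp18 by 1.95 ± 0.21 (adjusted p = 0.00341), Isg15 by 1.70 ± 0.22 (adjusted p = 0.00766) and Uba7 by 0.82 ± 0.15 (adjusted p = 0.0404) on the log2 scale. Herc6, at 1.03 ± 0.24, and Ube2l6, at 0.79 ± 0.27, had adjusted p values of 0.133 and 0.527. Without cKO day 8 replicate 1 or without cKO day 8 replicate 2 the count was 1, and with only these 2 groups fitted it was 5. The Uba7 call was lost without any 1 of the 5 libraries, and the Isg15 call without either cKO library. Neutrophil markers summed to at most 1.27 CPM in either group and T and NK cell markers to at most 0.175 CPM, with all 5 of the latter at 0 in cKO. B cell markers were lower in cKO (1.54 to 2.45 CPM summed) than in WT (7.68 to 13.8), and their part in the result was not tested.

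IFN-γ, the type II interferon, raised all 5 members in WT BMDMs, where 19.5% of genes were called higher. Isg15 went from between 10.2 and 15.6 CPM to 263, 293 and 269 CPM, a log2 fold change of 4.35 ± 0.23 (20.4-fold, 14.3 to 29.1, adjusted p = 1.1e-06). Usp18 rose by 3.8 ± 0.21 to 269, 330 and 236 CPM. Herc6 rose by 3.01 ± 0.23, Ube2l6 by 2.71 ± 0.26 and Uba7 by 2.30 ± 0.14. No treated library of any member overlapped an untreated one. The order of the 5 log2 fold changes was Isg15, Usp18, Herc6, Ube2l6 and Uba7, as it was on day 3 between cKO and WT. The order was another on day 5 between cKO and WT and with IFN-γ in cKO cells. Differences between members were not tested.

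In cKO BMDMs IFN-γ also raised all 5 members, where 17.5% of genes were called higher. Isg15 reached 1147 and 712 CPM (log2 fold change 4.41 ± 0.28), Usp18 1021 and 643 CPM (3.43 ± 0.25), Ube2l6 740 and 342 CPM (2.85 ± 0.33), Uba7 646 and 557 CPM (2.75 ± 0.18) and Herc6 140 and 243 CPM (2.07 ± 0.27). Replicate 1, with the lowest depth of all libraries and 57.1% of its reads unmapped against 12.6% to 18.4% in the other day 8 libraries, held the higher value for 4 members and the lower for Herc6. Without it the log2 fold change of Ube2l6 was 2.22, still called. The effect of IFN-γ was not called different between the genotypes for any member (0 of 5 by edgeR and 0 by DESeq2, 1 at an unadjusted p under 0.05). edgeR called 0 of 13075 genes in that comparison, with 1205 at an unadjusted p under 0.05 and 78 called by DESeq2. The 95% interval of the difference in log2 fold change was -0.66 to 0.78 for Isg15, -0.03 to 0.92 for Uba7, -0.73 to 1.01 for Ube2l6, -1.70 to -0.18 for Herc6 and -1.04 to 0.29 for Usp18, and Herc6 was called (-1.42, adjusted p = 0.00359) without cKO IFN-γ replicate 2.

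With IFN-γ present, cKO exceeded WT for 3 of 5 members, where 3.57% of genes were called higher: Isg15 by 1.76 ± 0.22, Usp18 by 1.58 ± 0.21 and Uba7 by 1.27 ± 0.15 on the log2 scale. Ube2l6 differed by 0.93 ± 0.27 (adjusted p = 0.0760) without overlap, and Herc6 by 0.09 ± 0.24 with overlap. The count was 0 when only these 2 groups were fitted. Untreated cKO cells did not reach the treated WT level: all 5 members were lower than in WT with IFN-γ, where 15.8% of genes were called lower, by 2.65 on the log2 scale for Isg15 (6.29-fold), 1.98 for Herc6, 1.92 for Ube2l6, 1.85 for Usp18 and 1.48 for Uba7. These day 8 comparisons share groups. When the 2 contradictory cKO libraries were placed by their titles, 0 members were called in each of the 6 day 8 comparisons. Stromal markers summed to 53.1 and 340 CPM in the cKO IFN-γ libraries and to 8.15 to 48.8 in the WT ones, and their part in the result was not tested. Plasmacytoid dendritic cell markers summed to 0.658 to 0.963 CPM in untreated WT libraries and to 4.29 to 7.74 CPM in WT with IFN-γ, with Siglech and Klk1 at 0. The 1 of them tested was Pacsin1, which was called higher (8.50 ± 1.12) and is named after its value was seen.

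**Figure D3:**
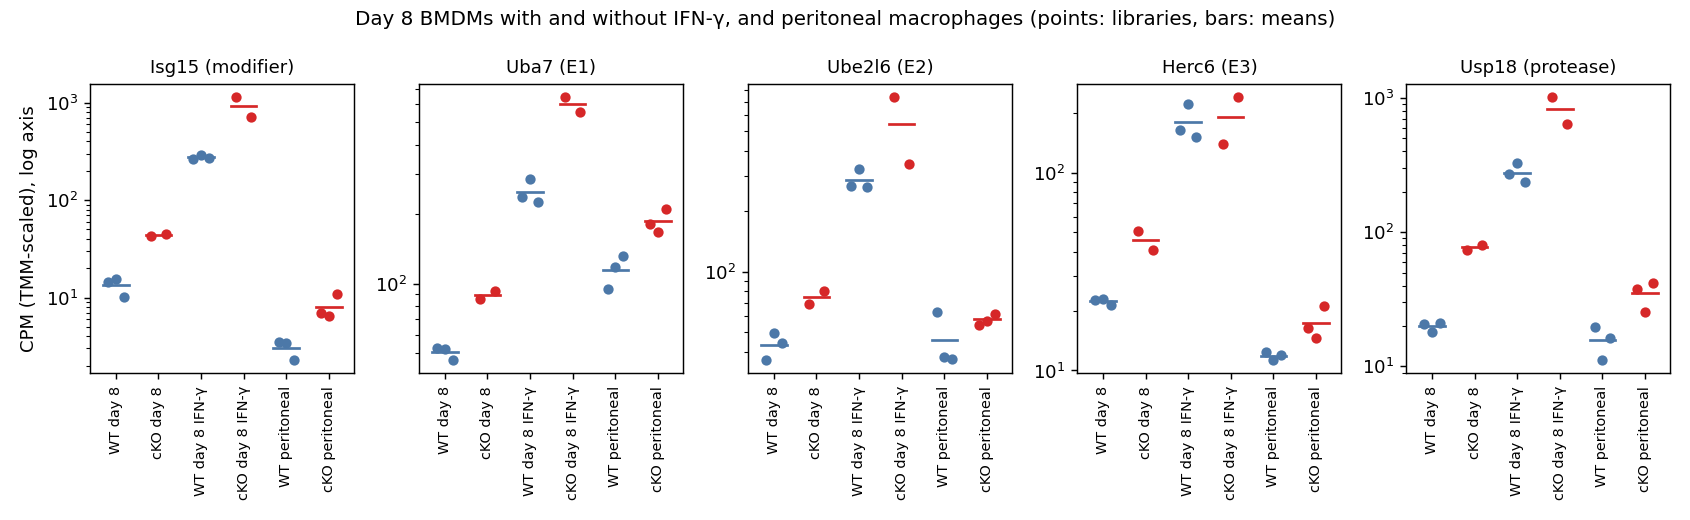
CPM (log axis) of each member in day 8 BMDMs with and without IFN-γ and in peritoneal macrophages, WT in blue and cKO in red, with bars for group means. For Isg15 the WT libraries with IFN-γ lie between 263 and 293 CPM, above all untreated libraries, and the 2 cKO libraries with IFN-γ lie at 712 and 1147 CPM.

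In peritoneal macrophages, taken from the animal without culture, the levels differed from those of BMDMs by gene. Uba7 was at 94.8, 118 and 132 CPM in WT and at 181, 167 and 211 CPM in cKO. Isg15 was at 3.48, 3.41 and 2.28 CPM in WT and at 6.98, 6.44 and 10.8 CPM in cKO. Usp18 was at 19.8, 11.1 and 16.2 CPM in WT and at 37.9, 25.5 and 41.9 CPM in cKO. The groups did not overlap for these 3 or for Herc6, and overlapped for Ube2l6. The log2 fold changes were 1.40 ± 0.30 for Isg15, 1.16 ± 0.27 for Usp18, 0.70 ± 0.18 for Uba7, 0.55 ± 0.20 for Herc6 and 0.34 ± 0.23 for Ube2l6. None was called by edgeR (0 of 5), where 1.06% of genes were called in either direction, with 4 at an unadjusted p under 0.05 and adjusted p values from 0.0970 (Isg15) to 0.747 (Ube2l6). DESeq2 called 3, as did edgeR without a filter on low counts (Isg15, Usp18 and Uba7 in both). The ratio of Isg15 to Uba7 CPM was the lowest of any group of the same genotype, 0.0172 to 0.0368 in WT and 0.0385 to 0.0511 in cKO. The peritoneal libraries were made with a different kit, so that levels across the experiments are also levels across protocols.

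The antibody experiment asked whether blocking IFNAR1, a chain of the type I interferon receptor, changes these genes. Without antibody, Isg15 was at 5.42, 3.01 and 3.04 CPM in WT and at 34.1, 20.4 and 8.76 CPM in cKO. Usp18 was at 6.09, 8.66 and 3.39 CPM in WT and at 41.6, 36.4 and 17.7 CPM in cKO. cKO replicate 3 was the lowest of its group for all 5 members, and the groups did not overlap for any. The test called 4 of 5 higher, where 4.01% of genes were called higher: Isg15 by 2.47 ± 0.39, Usp18 by 2.40 ± 0.37, Herc6 by 1.78 ± 0.23 and Uba7 by 1.01 ± 0.21. Ube2l6 (0.99 ± 0.30) had an adjusted p of 0.0514, and was called by DESeq2, with the replicate block, without WT replicate 1 and without cKO replicate 3. The Uba7 call was lost without WT replicate 2 or without cKO replicate 1, with log2 fold changes from 0.87 to 1.12 over the libraries left out. B cell markers summed to 13.2 to 21.0 CPM in WT and 5.87 to 9.85 in cKO here, and their part in the result was not tested.

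With control antibody, 5 of 5 members were called higher in cKO, where 3.43% of genes were called higher. Usp18 was at 3.36, 3.0 and 3.3 CPM in WT and at 20.3, 21.9 and 12.7 CPM in cKO (log2 fold change 2.50 ± 0.41). Isg15 was at 1.33, 1.19 and 2.20 CPM in WT and at 10.1, 11.6 and 6.85 CPM in cKO (2.63 ± 0.47). Herc6 differed by 1.55 ± 0.25, Ube2l6 by 1.13 ± 0.31 and Uba7 by 0.91 ± 0.22. The count was 3 without WT replicate 1, without WT replicate 2, without cKO replicate 1 or without cKO replicate 2 of the control antibody groups, and 4 without either other library. Stromal markers summed to 12.5 to 219 CPM in WT and to 156 to 290.3 in cKO here, and to 40.7 to 84.4 in cKO with IFNAR1 antibody, and their part in the result was not tested.

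With IFNAR1 antibody, 1 of 5 members was called higher in cKO, where 0.483% of genes were called higher. It was Usp18, at 0.846, 2.57 and 1.53 CPM in WT and at 8.75, 5.66 and 6.10 CPM in cKO (2.13 ± 0.44, adjusted p = 0.0360). Isg15 was at 1.85, 2.26 and 1.3 CPM in WT and at 7.42, 6.05 and 7.15 CPM in cKO, without overlap (1.95 ± 0.44, adjusted p = 0.0591). Herc6 differed by 0.74 ± 0.24 without overlap, and Ube2l6 (0.42 ± 0.30) and Uba7 (0.37 ± 0.21) overlapped. The Usp18 call was lost, leaving 0 members, without WT replicate 1, without cKO replicate 1, without cKO replicate 2 or without cKO replicate 3, when only these groups were fitted, and with the counts of 1 strand. DESeq2 called 2, adding Isg15.

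The antibodies were also compared within a genotype. Between IFNAR1 and control antibody in cKO cells, Usp18 fell by 1.40 on the log2 scale (2.64-fold, adjusted p = 0.0474), where 2.25% of genes were called lower. The other log2 fold changes were -0.75 for Herc6, -0.59 for Ube2l6, -0.45 for Isg15 and 0.38 for Uba7. The Usp18 call was lost without any 1 of the 6 libraries. In WT cells Uba7 rose by 0.91 ± 0.22 (adjusted p = 0.0167), where 7.38% of genes were called higher, from 11.5, 13.5 and 15.6 CPM to 28.1, 24.7 and 23.3 CPM. Usp18 was also lower in every WT library with IFNAR1 antibody than with control antibody (-1.03 ± 0.47), without being called (adjusted p = 0.139). Isg15 (0.23 ± 0.52), Ube2l6 (0.13 ± 0.31) and Herc6 (0.06 ± 0.25) overlapped in WT. The Uba7 call was lost without WT control antibody replicate 1, without WT control antibody replicate 2 or without WT IFNAR1 antibody replicate 1. The effect of the IFNAR1 antibody was not called different between the genotypes for any member (0 of 5 by edgeR and DESeq2, 1, Herc6 at -0.81 ± 0.34, at an unadjusted p under 0.05), with the others between -0.72 (Ube2l6) and -0.38 (Usp18). edgeR called 0 of 17191 genes in that comparison, with 991 at an unadjusted p under 0.05 and 44 called by DESeq2.

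The control antibody was also compared with no antibody. Uba7 fell by 0.77 on the log2 scale in WT, where 5.95% of genes were called lower, and by 0.87 in cKO, where 0.919% were called lower. Each was the only member called. The WT call was lost with the replicate block, whose numbers pair these samples (log2 fold change -0.77, adjusted p = 0.0719), and without any 1 of the 6 libraries, and the cKO call also without any 1 of its 6 libraries. Isg15 differed by -1.32 ± 0.49 in WT (adjusted p = 0.0888, without overlap) and by -1.17 ± 0.38 in cKO (adjusted p = 0.137, with overlap), where it was called without cKO no-antibody replicate 3 (-1.54). Usp18 differed by -0.92 ± 0.42 in WT and -0.81 ± 0.36 in cKO, Ube2l6 by -0.50 ± 0.31 and -0.36 ± 0.30, and Herc6 by -0.36 ± 0.25 and -0.59 ± 0.23. The 2 comparisons with control antibody share its libraries. With Uba7 at 21.5 to 24.8 CPM without antibody, 11.5 to 15.6 CPM with control antibody and 23.3 to 28.1 CPM with IFNAR1 antibody in WT, the control antibody group was the low one for Uba7.

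In the 3 BMDM sets, 4 of 5 members were called higher in cKO each time, where 17.9%, 10.1% and 17.1% of genes were called higher in sets 1, 2 and 3. Usp18 was at 19.7, 12.1 and 19 CPM in WT and at 63.6, 68.3 and 76.6 CPM in cKO in set 1, and its log2 fold changes were 2.05 ± 0.15, 1.78 ± 0.15 and 1.91 ± 0.15 over the 3 sets. Isg15 differed by 1.32, 1.0 and 1.28, each ± 0.21. Herc6 differed by 1.03, 1.0 and 0.62, each called. The member not called was Uba7 in sets 1 (0.31 ± 0.15) and 3 (0.22 ± 0.15), where WT and cKO overlapped, and Ube2l6 in set 2 (0.17 ± 0.15). In set 2 the WT level of Uba7 was 49.4 to 53.7 CPM and lay below every WT library of the other sets, and the WT level of Ube2l6 was 91.1 to 96.4 CPM and lay above all of them. Neutrophil markers were higher in cKO in set 1 (196 to 281 CPM summed against 59.3 to 110.2) and set 3 (194 to 319 against 66.5 to 120.3) and overlapped in set 2, while B cell markers were lower in cKO in sets 1 (42.7 to 59.3 against 109.6 to 188) and 3 (37.6 to 58.8 against 95 to 192) and higher in set 2. Their part in the result was not tested.

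The double KO lacking Sting stood above cKO for 4 of the 5 members, and differences between the double KOs were not tested. In the Sting double KO, Tmem173, which encodes STING, was at 5.01 to 6.10 CPM against at least 68.2 CPM in cKO. Isg15 was at 69.3, 76.2 and 88.0 CPM there, and no cKO library of the 3 sets exceeded 49.1 CPM. Uba7 was at 171, 163 and 163 CPM, and no cKO library exceeded 109 CPM. Usp18 was at 90.4, 104 and 110 CPM, and no cKO library exceeded 76.6 CPM. The test called 4 of 5 members higher, where 19.1% of genes were called higher, by 1.12 ± 0.15 for Isg15, 0.84 ± 0.12 for Uba7, 0.74 ± 0.11 for Usp18 and 0.63 ± 0.12 for Ube2l6. Herc6 (0.13 ± 0.12) overlapped. Each of the 3 sets alone as reference also gave 4, and the log2 fold change of Isg15 was then 0.97, 1.12 and 1.28. Stromal markers summed to 162 to 200 CPM in the Sting double KO, with 3 of 4 tested called higher, and to at most 69.0 CPM in the cKO sets. Their part in the result was not tested.

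In the Mavs double KO, Mavs was at 37.2 to 37.9 CPM, within the 36 to 51.6 CPM of the cKO sets, so that its level did not check the label. The paper reports checks of this deletion by genomic PCR, by qRT-PCR and by RNA-seq tracks over the deleted exons. The members there overlapped cKO, with log2 fold changes from -0.15 (Uba7) to 0.02 (Ube2l6). Of 5 members 0 were called by edgeR, where 9.32% of genes were called in either direction, with 0 at an unadjusted p under 0.05 and 0 by DESeq2. The 95% interval for Isg15 was -0.46 to 0.22, and for Usp18 -0.31 to 0.17. In the Irf7 double KO, Irf7 was at 98.3 to 112 CPM against 249 to 470 CPM in the cKO sets. There 1 of 5 members was called higher, where 4.81% of genes were called higher: Herc6 by 0.38 ± 0.12 (adjusted p = 0.0466), with overlap. Isg15 differed by 0.41 ± 0.16 (adjusted p = 0.107). No member was called with the replicate block, with any 1 set alone as reference, or without any 1 of 10 of the 12 libraries, and without cKO set 2 replicate 2 the count was 2, while only leaving out Irf7 double KO replicate 3 kept 1.

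Against WT, all 5 members were higher in each double KO, where 20.5% (Sting), 22.1% (Mavs) and 15.1% (Irf7) of genes were called higher. The log2 fold change of Usp18 was 2.66 ± 0.11, 1.84 ± 0.11 and 1.97 ± 0.11, and that of Isg15 was 2.32 ± 0.15, 1.08 ± 0.16 and 1.61 ± 0.16. Uba7 ran from 0.29 ± 0.12 (Mavs, adjusted p = 0.0492) to 1.29 ± 0.11 (Sting), Ube2l6 from 0.46 ± 0.12 to 1.11 ± 0.11 and Herc6 from 0.84 ± 0.12 to 1.26 ± 0.12. Uba7 and Ube2l6 overlapped WT in the Mavs and Irf7 double KOs. The Uba7 call in the Mavs double KO was lost without WT set 1 replicate 2, WT set 2 replicate 1 or 3, WT set 3 replicate 2 or 3, or Mavs double KO replicate 1 or 2, and against set 1 (0.033) or set 3 (0.15) alone. The Ube2l6 call in the Mavs double KO was lost against set 2 alone (0.014, adjusted p = 0.962), and the Uba7 call in the Irf7 double KO against set 1 alone (0.29, adjusted p = 0.140). These comparisons share the 9 WT libraries. Ube2l6 in the Irf7 double KO turned to -0.03 against set 2 alone. In the values against the mean of 3 sets, differences between sets and differences of genotype cannot be told apart. With 1 cKO set alone as reference, the fewest genes were called with set 1 for Sting (4094), set 2 for Mavs (158) and set 3 for Irf7 (222). Libraries of set 3 and the Irf7 double KO list 54146 genes, and those of the other sets and double KOs 55536. Whether this matches sets to double KOs was not tested.

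**Figure D4:**
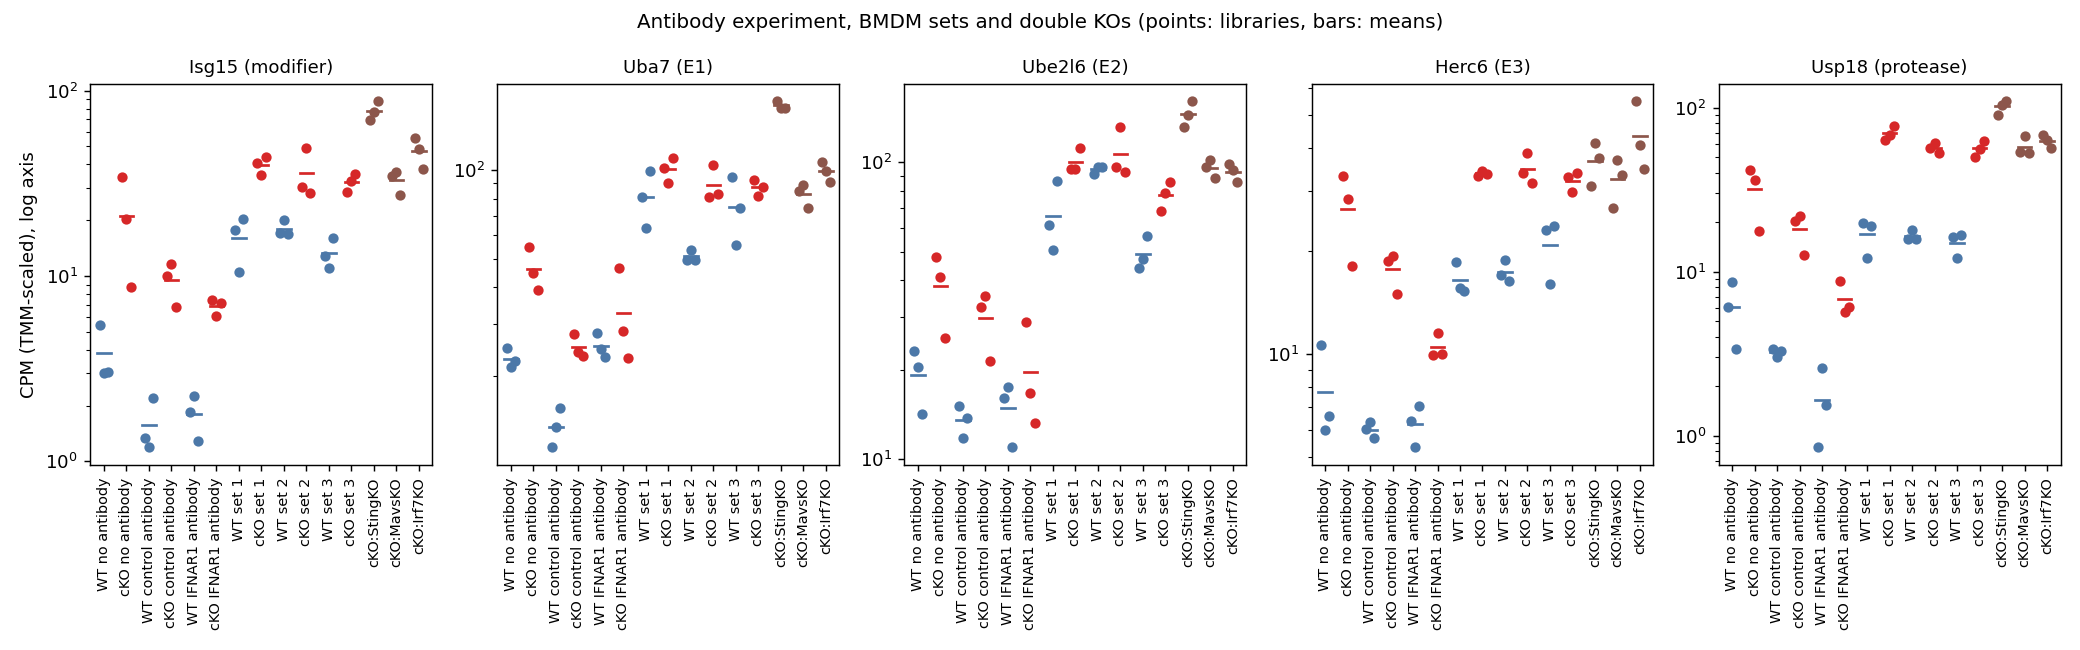
CPM (log axis) of each member by library in the antibody arms, the 3 BMDM sets and the double KOs, WT in blue, cKO in red and double KOs in brown, with bars for group means. The Sting double KO holds the highest means for Isg15 (77.8 CPM), Uba7 (165 CPM), Ube2l6 (145 CPM) and Usp18 (102 CPM) in this plot.

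Set side by side over all 27 groups on the per-kilobase scale, Isg15 was highest in cKO with IFN-γ (mean 1229 CPM per kb, range 941 to 1517), followed by WT with IFN-γ (364, range 348 to 387), cKO on day 3 (120) and cKO on day 5 (113, range 23.6 to 286). The place of cKO on day 5 rests on replicate 1, since its other libraries were at 23.6 and 30.5 CPM per kb. Its lowest means were those of WT on day 3 (1.82), WT with control antibody (2.08) and WT with IFNAR1 antibody (2.38). Neighbours in the order mostly overlapped: in 23 of 26 neighbouring pairs for Isg15, Ube2l6 and Herc6, and in 21 of 26 for Uba7 and Usp18. The 2 groups with IFN-γ did not overlap each other for Isg15, and WT with IFN-γ did not overlap the next group. CPM per kilobase was set here across experiments that were scaled separately.

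Across the 79 libraries in groups, the log2 CPM of the members, centred on the mean of each experiment, moved together, with Pearson's r from 0.846 (Uba7 with Usp18) to 0.962 (Isg15 with Usp18). Within the antibody experiment (18 libraries) r was as low as 0.583 for Uba7 with Usp18. Of 11170 genes, the most alike in pattern to Isg15 were Zbp1 (r = 0.968), Ifit1 and Ifi35, to Uba7 Trafd1 (0.953), Pml and H2-T23, and to Ube2l6 Ogfr (0.945), H2-T23 and Tor3a. Those most like Herc6 were Trim30a (0.98), Ifih1 and Stat2, and those most like Usp18 were Ifi211 (0.971), Ifi204 and Ifi44. The points share experiments, genotypes and the IFN-γ groups, so these values describe the libraries only.

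The relatives of each step in the ubiquitin pathway did not follow the system on day 3. Of 13 ubiquitin-like proteins, 8 E1, 26 E2 and 31 USP genes tested, edgeR called 0 between cKO and WT, and of 4 other HERC genes it called Herc2, lower by 0.53. Uba1, the main E1 of ubiquitin, had a log2 fold change of -0.06 ± 0.16, Ube2l3, an E2 closely related to Ube2l6, of -0.20 ± 0.12, and Ubb, a polyubiquitin gene, of 0.29 ± 0.19. The proteases Usp5, Usp14 and Usp25 had -0.12 ± 0.14, -0.31 ± 0.17 and 0.40 ± 0.18, and Herc1, Herc3 and Herc4 lay between -0.10 and 0.16. The list medians lay between -0.16 and 0.13, beside 3.15 for the members and 0.04 for all genes. With IFN-γ in WT, where 2552 of 13075 genes were called higher (19.5%) and 2528 lower, 7 of 14 ubiquitin-like genes were higher, led by Ubd, the ubiquitin-like FAT10 (7.59 ± 0.82), 1 of 8 E1 genes was higher (Uba1, 0.53) and 3 lower, 6 of 25 E2 genes were higher (Ube2z 1.27) and 1 lower, 2 of 4 HERC genes were higher and Herc2 lower, and 7 of 31 USP genes rose (Usp12 1.84, Usp25 1.58) and 7 fell (Usp10 by 1.18).

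**Figure D5:**
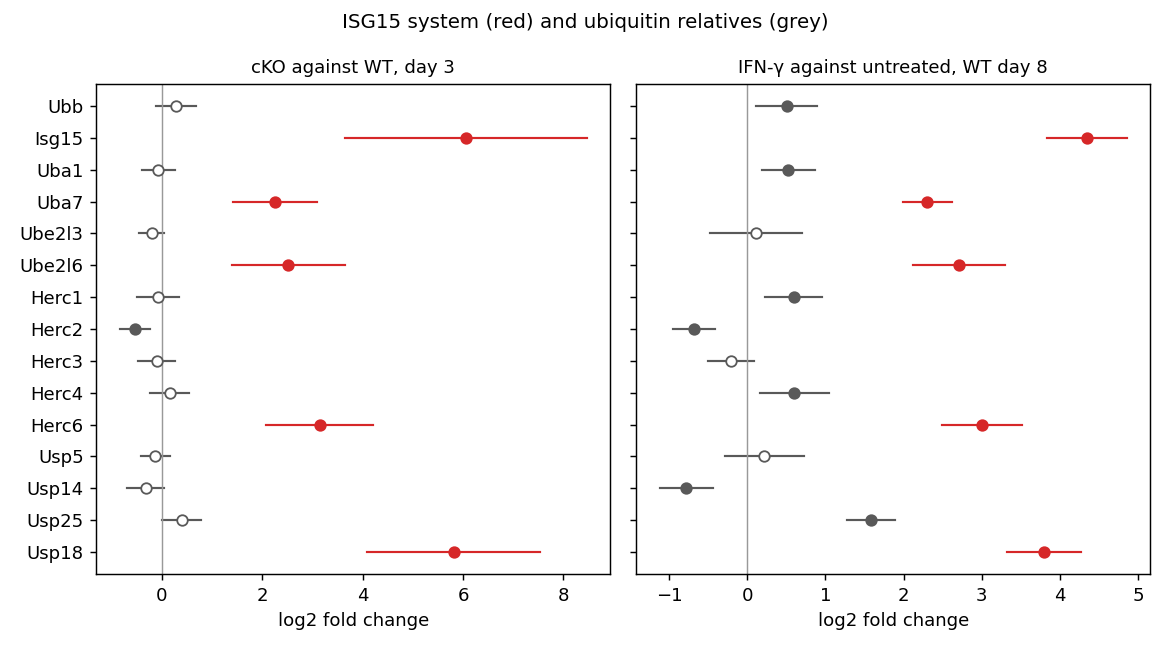
Log2 fold changes with 95% confidence intervals of the members (red) and their nearest ubiquitin relatives (grey), filled where the adjusted p was under 0.05, for cKO against WT on day 3 and for IFN-γ in WT. On day 3 the 5 members lie between 2.26 and 6.06 and the relatives between -0.53 and 0.40.

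Of 16 partners and regulators of ISG15, 5 were called higher in cKO on day 3, beside 6.0% of all genes, led by Ddx58, the RNA sensor RIG-I (3.67 ± 0.52), Stat2, which brings USP18 to the receptor (2.83 ± 0.43), and Ifih1, the sensor MDA5 (2.47 ± 0.40). The 1 called lower was Ifnar1, the receptor chain itself, by 0.42, named after its value was seen. The list median was 0.13. Of 9 interferon signalling genes tested, 7 were higher and 0 lower, led by the transcription factor Irf7 (6.61 ± 1.04), Ifnb1 (5.77 ± 1.35) and Stat2, which stands in both lists. Ifnb1, which encodes interferon-β, had 0 or 1 reads in each WT day 3 library and 13 to 44 in each cKO library, and Ifng had 0 in all 6. On day 7, where 0 of 16 partners and 0 of 9 signalling genes were called, the list medians were 0.17 and 0.34. With IFN-γ in WT, beside the 19.5% of all genes called higher, 9 of 16 partners were higher and 1 lower, and 6 of 8 signalling genes were higher, led by Socs1, a feedback inhibitor of JAK kinases (6.99 ± 0.22), Irf1 (4.98 ± 0.18) and Irf7 (3.56 ± 0.23).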

How the data were processed

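RNA was sequenced after ribosomal RNA depletion, except for the peritoneal libraries, which used a low-input kit. The authors trimmed reads with Cutadapt, aligned them to mm10 with STAR and deposited STAR's gene counts. The unstranded counts were used here, after setting aside rows that name no gene. Each experiment was fitted alone with edgeR 4.0.16 (R 4.3.3; TMM scaling, genes kept with a count of 10 by filterByExpr, quasi-likelihood test, Benjamini-Hochberg adjustment over all genes tested, called at an adjusted p under 0.05). Levels are given as TMM-scaled CPM, and groups hold 2 or 3 replicates, which the study describes as biological. The ± values are SEs of log2 fold changes, or of differences between them, from the fit of the whole experiment. They are not the spread of CPM over the replicates of a group. Members are described in every comparison, and other genes come from lists, of which the called genes with the largest change are named. The members and lists were chosen with earlier results of these data known. Replicate numbers were taken to pair samples where every pair of same-numbered libraries deviated together with r above 0.1: cKO against WT on days 3 (0.126 to 0.420) and 7 (0.153 to 0.467), cKO day 7 against day 3, IFN-γ in WT, peritoneal macrophages, and control against no antibody in WT. The procedure was tested on simulated counts with the same dispersion for every gene and no outlying replicate. That test does not cover groups with an outlying library.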

Additional observations from a re-analysis of the deposited data

Results flagged for a closer look

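The 2 cKO day 8 libraries carry titles and library names that contradict each other. No group was assigned and neither entered a comparison. Both held member levels above the highest untreated WT day 8 library, which is what drew attention to them. The library titled as IFN-γ-treated and named as untreated had 28.7 CPM of Isg15, 85.2 of Uba7, 63.4 of Ube2l6, 46.4 of Herc6 and 62.1 of Usp18. The library titled as untreated and named as IFN-γ-treated had 662 CPM of Isg15, 489 of Uba7, 340.0 of Ube2l6, 279 of Herc6 and 633 of Usp18. On the same scale untreated cKO libraries lay between 43.2 and 45.4 CPM for Isg15 and IFN-γ-treated cKO libraries between 720.2 and 1161 CPM. These values were not used to place either library.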

How the results depend on the processing

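Of 150 member values, 82 were called, and 43 of those stayed called in the same direction under every alternative applied to single members. The log2 threshold of 1 was applied only to counts of members and is not among these. Only 1 called value changed sign outside the runs that leave out a library. RLE in place of TMM scaling, and placing the contradictory libraries by library name, moved no count of members called by more than 1.5 times.

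DESeq2 called 4 members for the cKO effect on day 7 against day 3, 3 in peritoneal macrophages and 2 each for cKO against WT with IFNAR1 antibody, IFNAR1 against control antibody in cKO and control against no antibody in WT. Without a filter on low counts the numbers were 1 for the cKO effect, 3 peritoneal, 2 with IFNAR1 antibody and 0 for control against no antibody in cKO, the last also 0 with a mean of at least 1 CPM, and the genotype difference in the IFN-γ effect turned to -0.090 (Isg15) and -0.023 (Ube2l6). With only the groups compared, the numbers were 0 on day 5, 4 for the cKO effect, 5 on day 8, 0 on day 8 with IFN-γ, 0 with IFNAR1 antibody, 0 for IFNAR1 against control antibody in WT and in cKO, and 2 for control against no antibody in WT. The strand column gave 0 with IFNAR1 antibody and 0 for IFNAR1 against control antibody in cKO. A log2 threshold of 1 gave 0 for IFNAR1 against control antibody in WT, control against no antibody in WT and in cKO, and Irf7 double KO against cKO, 1 in set 2, 2 in set 3, 1 for Sting double KO against cKO, and 2 and 3 for the Mavs and Irf7 double KOs against WT.

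The replicate block gave 1 on day 7, 3 for the cKO effect, 2 with IFNAR1 antibody and 0 for Irf7 double KO against cKO, and, within a genotype, 2 for IFNAR1 against control antibody in cKO and 0 for control against no antibody in WT. Of the comparisons whose numbers pair the samples, the block moved the count on day 7 and for control against no antibody in WT.

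Leaving out replicate 1 of every time course group (chosen after seeing the data) gave 4 on day 7, 2 for cKO day 7 against day 3, where Herc6 turned to -0.11, and 5 for the cKO effect. Placing the contradictory libraries by title gave 0 in cKO against WT on day 8 and on day 8 with IFN-γ, for IFN-γ in WT and in cKO and for untreated cKO against WT with IFN-γ, with Herc6 at -0.33 in cKO against WT with IFN-γ and the genotype difference in the IFN-γ effect at -3.00 (Isg15), -1.35 (Uba7) and -1.48 (Ube2l6).

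With set 1, 2 or 3 alone as reference, 0 members were called for Irf7 double KO against cKO. For Mavs double KO against cKO, Ube2l6 turned to -0.071 (set 1) and -0.16 (set 2), Usp18 to 0.024 (set 2) and 0.033 (set 3), and Isg15 to 0.035 and Herc6 to 0.013 (set 3). For Irf7 double KO against cKO, Uba7 turned to -0.023 and Usp18 to -0.14 (set 1) and Ube2l6 to 0.26 (set 3), while Ube2l6 also turned to 0.012 with a mean of at least 1 CPM, 0.0053 with only the groups compared and 4.5e-05 with the strand column. Ube2l6 in Irf7 double KO against WT turned to -0.027 (set 2).

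Leaving out each library in turn gave 0 to 5 members on day 5, 0 to 1 on day 7, 0 to 2 for the cKO effect, 1 to 2 on day 8, 0 to 1 for the genotype difference in the IFN-γ effect, 3 to 4 with control antibody, 0 to 1 with IFNAR1 antibody, 0 to 1 and 0 to 0 for IFNAR1 against control antibody in WT and cKO, 0 to 0 and 0 to 1 for control against no antibody in WT and cKO, and 0 to 2 for Irf7 double KO against cKO. Signs changed for Uba7 on day 7 (-0.084 to 0.39), Ube2l6 (-0.22 to 0.090) and Herc6 (-0.030 to 0.37) in cKO day 7 against day 3, Herc6 with IFN-γ (-0.39 to 0.46), Isg15 (-0.28 to 0.33) and Ube2l6 (-0.47 to 0.57) in the genotype difference of the IFN-γ effect, Ube2l6 (-0.0024 to 0.31) and Herc6 (-0.036 to 0.15) in IFNAR1 against control antibody in WT, Usp18 in the genotype difference of the antibody effect (-0.73 to 0.054), Ube2l6 in set 2 (-0.0067 to 0.27), Ube2l6 (-0.025 to 0.083) and Herc6 (-0.16 to 0.074) in Mavs double KO against cKO, and Ube2l6 (-0.066 to 0.042) and Usp18 (-0.0098 to 0.12) in Irf7 double KO against cKO. The cause of these changes was not tested. Groups of 2 or 3 libraries limit all counts, and a library left out of a group of 2 leaves a lone sample assumed to vary like the others.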
